A study of Mus musculus with 45 samples.

Results

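The genes described here encode structural parts of the centromere and the kinetochore. They were chosen by symbol from a list of names, and all 35 were found among the 55357 gene identifiers of the deposited count table. The kinetochore is the protein assembly that ties each chromosome to the spindle. Its base is chromatin marked by CENP-A, on which the inner kinetochore proteins sit. The KMN network binds microtubules from that base, and the outer corona, the Spindly and RZZ proteins and the SKA complex complete the attachment. In oocytes these parts are built from stored transcripts and proteins for the meiotic divisions, in which segregation errors become more frequent with maternal age.

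Single mouse oocytes were sequenced as 45 libraries, 1 oocyte each. In reconstituted chimeric follicles an oocyte was moved into a follicle emptied of its own oocyte, and the follicle was then cultured. Young oocytes in young somatic cells formed the YY group (n = 11), aged oocytes in young somatic cells the AY group (n = 6) and aged oocytes in aged somatic cells the AA group (n = 12). The controls were young oocytes, either with culture in vitro (in vitro young, n = 8) or taken without culture (in vivo young, n = 8). Reconstitution and culture were common to YY, AY and AA. Strain, ages and meiotic stage are not given in the sources used here, and no animal is named, so the p-values speak of the spread among these oocytes only, part of which may be technical.

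Total counts ranged from 418703 to 2201980 per library. Each group had its own range of library numbers, so a difference between numbering series and a difference between groups cannot be told apart. The YY libraries fell in 2 number ranges, S198 to S202 (n = 5) and S225 to S231 (n = 6). Another division came from 11 genes that were either plainly present or almost absent, which split the 45 libraries into 10 sets. AA held 2 of these sets, AY 2 and YY 4, with none common to any pair of these groups. Within YY no set held libraries of both number ranges, so the 2 divisions are not independent there. The sets of S198 to S202 also occurred among the controls, and those of S225 to S231 in no other group. Summed CPM (counts scaled to a library total of 1e+06, with edgeR's TMM factors) of 10 oocyte markers lay between 12583 and 30573 in every library. Summed levels of 7 theca and stroma markers were at most 10.0 CPM, of 6 immune markers at most 33.6 CPM and of 7 endothelium and blood markers at most 129.9 CPM.

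Nearly every part of the kinetochore was represented in oocyte RNA, but at levels that differed widely within single complexes. Levels between genes were compared as CPM per kilobase of the longest coding transcript, averaged over the 5 group means. The median member stood at the 91.3 percentile of 21826 coding genes, and 34 of the 35 lay above the 50th percentile. These coding genes were taken whether detected or not, so that even Cenpb, with almost no counts, stood at the 40.0 percentile. Cenpn, which reads the CENP-A nucleosome, had the highest level at 473 CPM per kilobase, whereas Cenpl, its binding partner in the inner kinetochore, had 6.81. Cenpb, which binds a short repeat in centromeric DNA, had the lowest level of all members, with 0 counts in 35 libraries and no more than 4 counts in any.

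In the CENP-A group, Mis18a, part of the complex that licenses CENP-A loading, was highest at 138 CPM per kilobase. Hjurp, the CENP-A chaperone, was lowest at 8.29, and Cenpa itself had 81.6. In the KMN network Nuf2, an arm of the microtubule-binding Ndc80 complex, was highest at 178 CPM per kilobase. The Mis12 complex bridges the inner kinetochore to the Ndc80 complex, and its 4 genes ranged from 176 for Dsn1 through 99.9 for Pmf1 and 22.01 for Mis12 to 1.19 for Nsl1. Nsl1 had 1 to 15 counts per library and fell below the filter of the main tests, as did Cenpb. Among the outer genes Spdl1, which encodes the dynein adaptor Spindly, was highest at 149.4 CPM per kilobase and Kntc1, the Rod subunit of the RZZ complex, lowest at 2.40. Of the 3 subunits of the SKA complex, which holds depolymerising microtubule ends, Ska1 had 67.2, Ska3 66.7 and Ska2 3.41. The levels rest on the annotated longest transcript, and the transcript used in the oocyte was not measured.

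**Figure D1:**
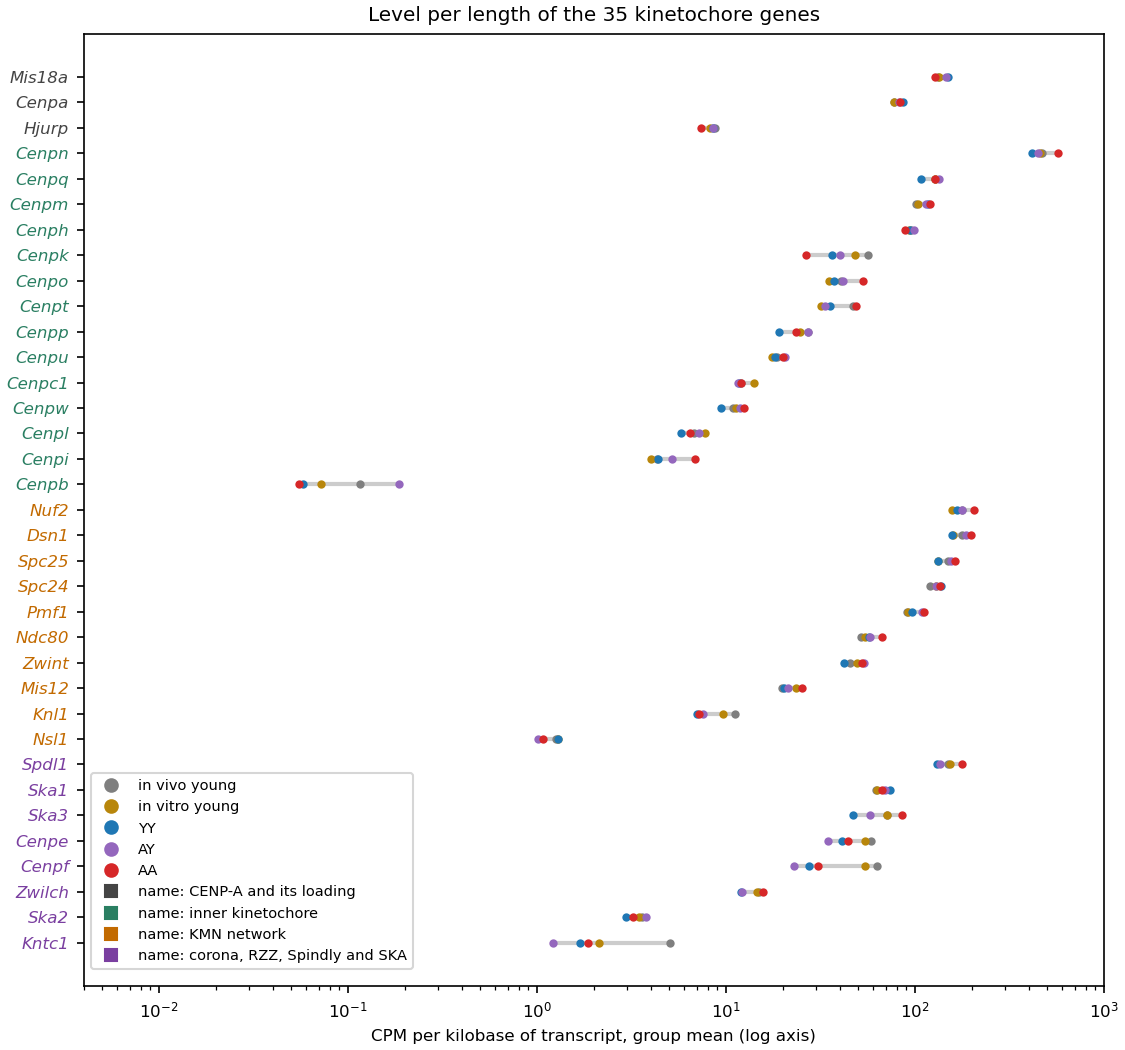
Level of each of the 35 genes in CPM per kilobase of transcript on a log axis, with 1 point per group mean and gene names coloured by role. Cenpn stands highest at 473 on average and Cenpb lowest, and members of the same complex, such as Dsn1 and Nsl1, lie far apart in every group.

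The first comparison set aged oocytes in aged somatic cells against young oocytes in young somatic cells. Of the 33 members tested, 10 were higher and 1 lower in AA at an adjusted p under 0.05 (edgeR, quasi-likelihood F test, Benjamini-Hochberg adjustment over all genes). Among all 8533 genes tested 27.5% were called, 12.8% higher and 14.7% lower. The members that rose were Ska3, Cenpi, Cenpo, Cenpn, Cenpt, Spdl1, Cenpw, Dsn1, Nuf2 and Cenpq, and Cenpk fell. The share of members called, 33.3%, was close to the background share, whereas the median log2 difference was 0.20 for the members and -0.01 for all genes. By role, 6 inner kinetochore genes rose and 1 fell among 13 tested, 2 of 9 KMN genes rose and 2 of 8 outer genes rose. Of the 3 CENP-A genes none was called, and 1 had an unadjusted p under 0.05, Mis18a with a log2 difference of -0.24 ± 0.11 (SE). Hjurp differed by -0.24 ± 0.18 and Cenpa by -0.06 ± 0.11.

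Cenpn lies on chromosome 8 (117648469 to 117668247, mm39) and carried the most counts of any member. Its lowest, median and highest levels were 591, 696 and 947 CPM in YY and 905, 1007 and 1135 CPM in AA. All 12 AA oocytes were above the YY median, and 8 were above the highest YY oocyte. The log2 difference was 0.45 ± 0.08 (SE), with an adjusted p of 2.49e-05 in edgeR's quasi-likelihood test.

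Cenpo encodes a subunit of the complex that also holds the products of Cenpp, Cenpq and Cenpu. It had 94.2, 155 and 240.7 CPM (lowest, median, highest) in YY and 166, 226.1 and 280.5 CPM in AA, and rose by 0.49 ± 0.12 on the log2 scale. Cenpq, from the same complex, rose by 0.24 ± 0.09, from 166, 223 and 259 CPM to 213, 249 and 285 CPM. The groups overlapped for both genes, with 5 AA oocytes above the highest YY oocyte for Cenpo and 4 for Cenpq. The other genes of the complex did not pass the test, with log2 differences of 0.26 ± 0.19 for Cenpp and 0.15 ± 0.15 for Cenpu. Adjusted p values in edgeR's quasi-likelihood test were 0.00219 for Cenpo and 0.0316 for Cenpq. The spans of Cenpo and Cenpq overlap other genes (Adcy3 and Ptrhd1, and Mmut), as do those of Cenpk (Ppwd1), Cenpt (Tsnaxip1) and Cenpf (a pseudogene), and reads in the shared stretches cannot be assigned without strand.

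Cenpt and Cenpw encode histone-fold partners that give the Ndc80 complex another anchor at the centromere. Cenpt had 36.3, 70.1 and 90.5 CPM in YY and 68.9, 85.3 and 113 CPM in AA, and rose by 0.45 ± 0.14 on the log2 scale. Cenpw had 27.2, 33.6 and 60.9 CPM in YY and 42.7, 50.8 and 61.0 CPM in AA, and rose by 0.37 ± 0.14. AA spanned the upper part of the YY range for Cenpw, with 1 oocyte above it, whereas 5 AA oocytes exceeded every YY oocyte for Cenpt. Adjusted p values in edgeR were 0.0133 for Cenpt and 0.0427 for Cenpw.

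The Cenph, Cenpi, Cenpk and Cenpm products form 1 inner complex, of which 1 gene was called higher and 1 lower in the main fit. Cenpi had 6.48, 15.4 and 22.1 CPM in YY and 10.9, 21.4 and 45.9 CPM in AA, and rose by 0.64 ± 0.24 on the log2 scale, on at most 40 counts per library. Cenpk had 24.9, 46.8 and 78.5 CPM in YY and 20.04, 34.5 and 46.4 CPM in AA, a log2 change of -0.45 ± 0.17. All 12 AA oocytes were below the YY median of Cenpk. Adjusted p values in edgeR were 0.0386 for Cenpi and 0.0481 for Cenpk. Neither Cenph (-0.10 ± 0.10) nor Cenpm (0.02 ± 0.09) was called. Cenpl (0.13 ± 0.18) and Cenpc1, whose product links centromeric nucleosomes to the Mis12 complex (0.02 ± 0.19), were not called either. The calls of Cenpi, Cenpk, Cenpq and Cenpw each depended on single oocytes: 10, 13, 9 and 13 of the 23 libraries ended the call when left out. The log2 differences then lay between 0.49 and 0.72 for Cenpi, -0.53 and -0.35 for Cenpk, 0.20 and 0.27 for Cenpq, and 0.32 and 0.46 for Cenpw. Of 12 other settings, 6, 9, 5 and 7 ended the calls of these genes in the same order. Across those settings the log2 difference of Cenpk lay between -0.65 and -0.14. Mean Cenpk was 39.7 CPM in the YY libraries S198 to S202, 54.6 CPM in S225 to S231 and 34.9 CPM in AA.

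In the KMN network the 2 genes that rose belong to different complexes. Nuf2, on chromosome 1 (169325503 to 169359034), had 341, 403 and 467 CPM in YY and 409, 499.9 and 583 CPM in AA, a log2 difference of 0.28 ± 0.07 with 10 AA oocytes above every YY oocyte. Dsn1, on chromosome 2 (156837185 to 156849075), had 278.9, 415 and 509.7 CPM in YY and 441, 512 and 644 CPM in AA, a log2 difference of 0.34 ± 0.10. For both genes all 12 AA oocytes were above the YY median, and the adjusted p values in edgeR were 0.00263 for Nuf2 and 0.0075 for Dsn1. Their direct partners were not called: Ndc80, the dimer partner of Nuf2, differed by 0.20 ± 0.12, Spc25 by 0.29 ± 0.15 and Mis12 by 0.31 ± 0.13. Spc24 (-0.02 ± 0.09) and Knl1, the scaffold that recruits checkpoint proteins (0.04 ± 0.13), had differences within 1 SE of 0. Zwint, which binds Knl1, differed by 0.30 ± 0.12 and Pmf1 by 0.20 ± 0.10, and neither passed the test.

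Ska3 gave the largest log2 difference of the 33 tested members in this comparison. Ska3, on chromosome 14 (58044018 to 58063643), had 63.7, 111 and 180.1 CPM in YY and 128.9, 201.6 and 264 CPM in AA. Its mean was 107 ± 34.7 CPM in YY (SD, n = 11) and 194 ± 36.8 CPM in AA (SD, n = 12), with every AA oocyte above the YY median and 7 above the highest YY oocyte. The log2 difference was 0.85 ± 0.13 (SE), with an adjusted p of 4.73e-06 in edgeR's quasi-likelihood test. The other SKA genes were not called, with -0.16 ± 0.09 for Ska1 and 0.08 ± 0.29 for Ska2, the latter on at most 21 counts per library. Ska3 lies on the minus strand, and its last bases (58044018 to 58044096) overlap the span of Sap18. The strand setting of the counting is unknown here.

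Spdl1, on chromosome 11 (34700017 to 34724469), had 270.3, 311 and 389.6 CPM in YY and 351, 438 and 509.6 CPM in AA. Of the 12 AA oocytes 11 were above the highest YY oocyte, and the remaining one was above the YY median. The log2 difference was 0.42 ± 0.08, with an adjusted p of 0.000109 in edgeR's quasi-likelihood test. Of the RZZ complex, which brings Spindly to the kinetochore, the members Zwilch (0.39 ± 0.16) and Kntc1 (0.16 ± 0.27) were not called. Its remaining subunit gene, Zw10, is no member of the list of 35 and was named after its values were seen. It had 35.01, 78.4 and 111.5 CPM in YY and 63.7, 109.5 and 139 CPM in AA, and rose by 0.41 ± 0.14 (adjusted p 0.0266 in edgeR). Neither of the large corona genes was called in AA against YY, with 0.10 ± 0.08 for the kinesin gene Cenpe and 0.15 ± 0.15 for Cenpf.

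The young controls give the levels outside reconstituted follicles. Ska3 had 95.4, 164.4 and 262 CPM (lowest, median, highest) in uncultured and 99.0, 169 and 204 CPM in cultured oocytes, ranges that overlapped those of YY and AA. Cenpn had 758, 833 and 898 CPM in uncultured and 604, 798 and 968 CPM in cultured oocytes, so that every AA oocyte was above every uncultured one. Spdl1 had 297, 361 and 494 CPM and 278.3, 394 and 483 CPM. AA was not tested against the controls, and how many of all genes were without overlap was not counted.

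**Figure D2:**
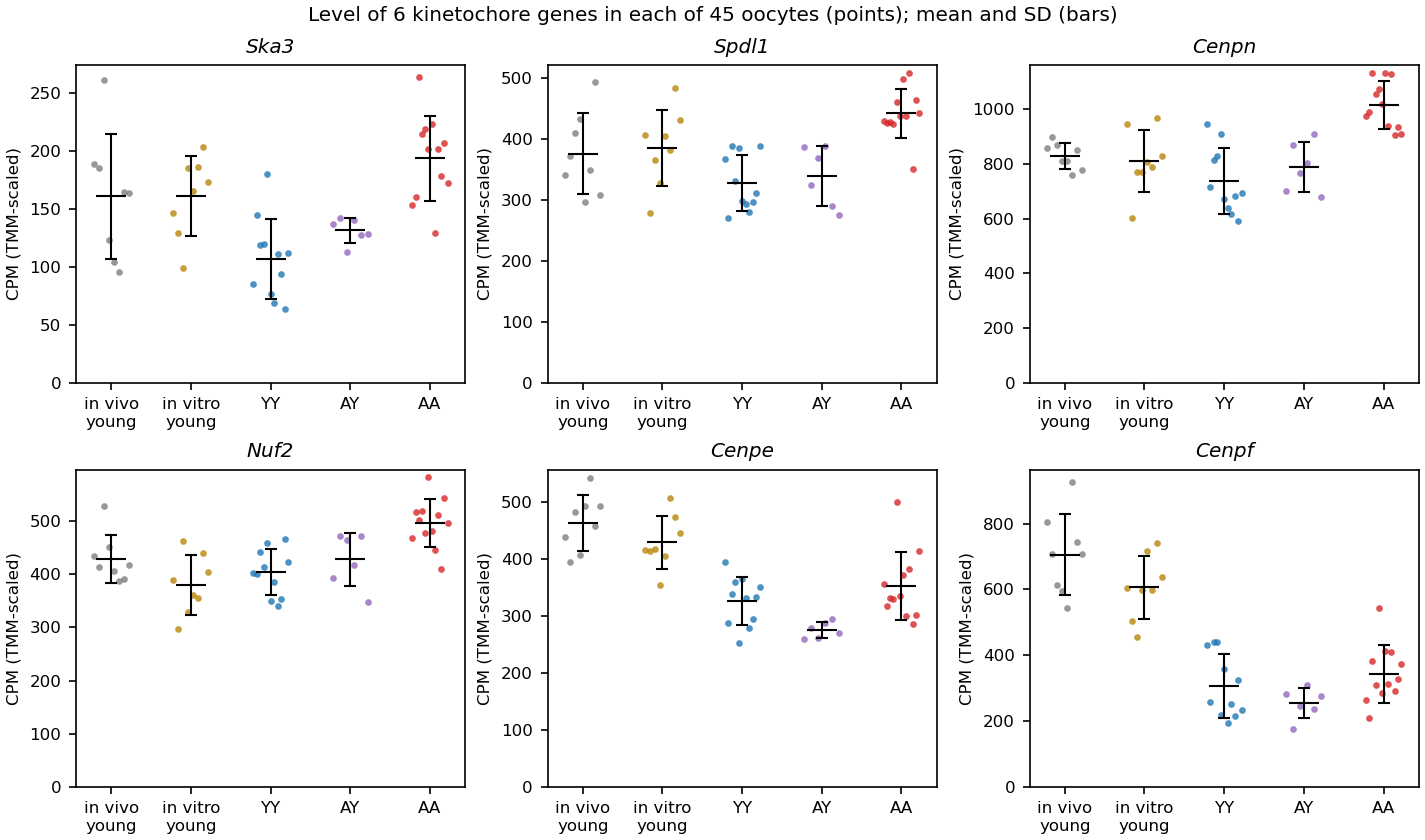
TMM-scaled CPM of 6 members in each of the 45 oocytes (points) by group, with the group mean and SD as bars, and a vertical axis that starts at 0. For Ska3, Spdl1, Cenpn and Nuf2 the AA points lie above the YY median, and for Cenpf all 11 YY points lie below the in vitro young points.

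The size of these differences depended on which YY libraries were used. Against S198 to S202 alone 2 members were called in AA, Ska3 and Spdl1, and against S225 to S231 alone 13 were. The share of all genes called in each of these fits is not given here, so the counts cannot be read as particular to the members. The mean of Cenpn was 844 ± 90.1 CPM (SD, n = 5) in the first range and 649 ± 40.4 CPM (SD, n = 6) in the second, and the ranges did not overlap. Cenpo had 208 ± 33.1 CPM and 125 ± 22.5 CPM, again without overlap, so that its log2 difference from AA was 0.12 against the first range and 0.86 against the second. The corresponding differences were 0.33 and 0.48 for Spdl1 and 0.56 and 1.13 for Ska3. How many of all genes were without overlap between the YY number ranges was not counted.

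**Figure D3:**
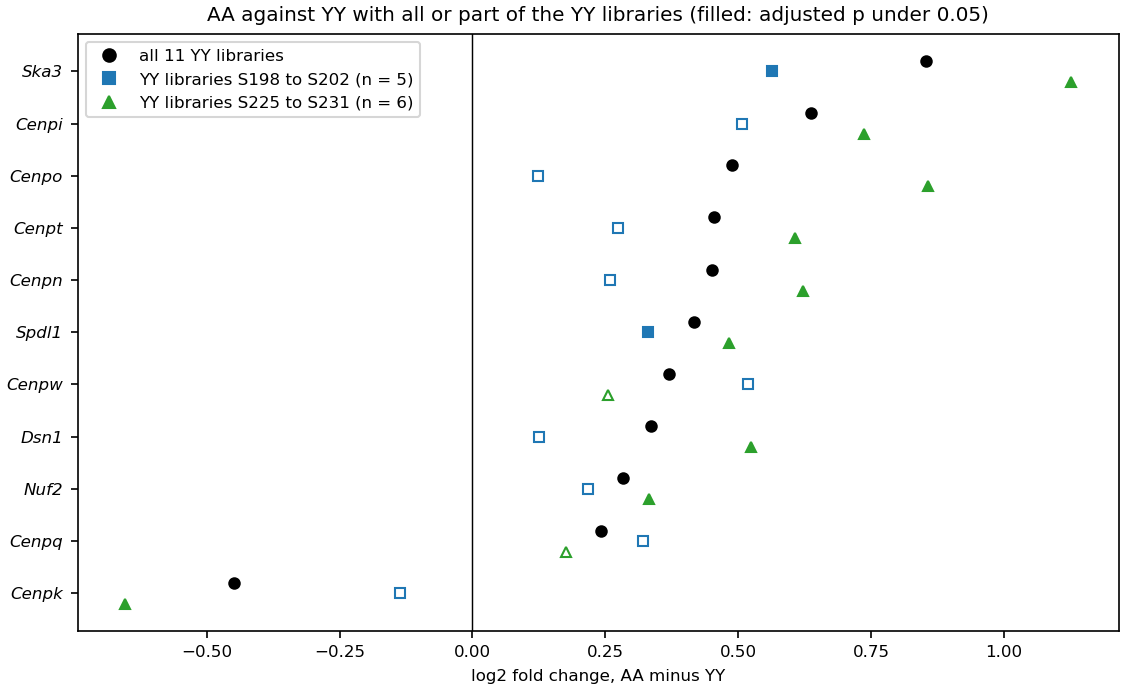
Log2 difference between AA and YY for the 11 called members with all 11 YY libraries, with S198 to S202 (n = 5) or with S225 to S231 (n = 6), where filled symbols mark an adjusted p under 0.05. Ska3 and Spdl1 are filled in all 3 settings, and every difference keeps its sign.

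When the libraries of a group that shared a set of all-or-nothing genes were summed to 1 sample, AA and AY had 2 samples each and YY 4, and edgeR called no member in any of the 5 comparisons. At an unadjusted p under 0.05 that fit gave 5 members for AA against YY and 5 for AY against AA. The share of all genes at that threshold was not counted. Within AA, Ska3 averaged 182 CPM in the set of 9 oocytes and 228.5 CPM in the set of 3. Within YY the averages of its 4 sets were 85.1, 89.0, 108 and 162.3 CPM, each below both AA sets. Cenpn averaged 985 and 1113 CPM in the AA sets and 636, 676, 813 and 864 CPM in the YY sets, so its sets were also apart. Both genes were among those with the smallest adjusted p in these same libraries, so this gives no separate support. For Cenpk, also called, the sets overlapped, with 30.7 and 36.3 CPM in AA and 32.2 to 63.5 CPM in YY. How many members or other genes had their sets apart was not counted.

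Of the granulosa cell markers 3 of the 5 tested were higher in AA (Serpine2, Inha and Inhba). The summed level of all 10 was 517 to 838 CPM in YY and 691 to 1211 CPM in AA, most of it from Serpine2, which had 442 to 766 CPM in YY, 581 to 1060.0 CPM in AA and 391 to 1035 CPM in the controls. Without Serpine2 the sum was 50.9 to 100.7 CPM in YY and 74.2 to 261 CPM in AA. Of the defining genes Amh was at 0 in every library. Foxl2 was at 0 in YY and in both control groups and had counts in AA and AY. The part of the granulosa markers in the kinetochore results was not tested. Among the oocyte markers 3 of 10 were higher in AA, Nlrp5, Zp1 and Zp2.

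The promoters of Ska3, Spdl1 and Cenpn are shown because these genes had the smallest adjusted p among the members in AA against YY, and those of Cenpe and Cenpf because both were lower in YY than in cultured controls, as given further on. Each run is the 300 bases from 250 before to 50 after the transcription start in RefSeq (GRCm38.p6), 5′ to 3′ on the strand of the gene. Capitals mark CCAAT, the NF-Y box, or its complement ATTGG, and TTTGAA, the cell cycle homology region, or its complement TTCAAA. The intervals are chr14:57826114-57826413 for Ska3 (minus strand), chr11:34833592-34833891 for Spdl1 (minus), chr8:116921490-116921789 for Cenpn (plus), chr3:135212313-135212612 for Cenpe (plus) and chr1:189688037-189688336 for Cenpf (minus).
Ska3: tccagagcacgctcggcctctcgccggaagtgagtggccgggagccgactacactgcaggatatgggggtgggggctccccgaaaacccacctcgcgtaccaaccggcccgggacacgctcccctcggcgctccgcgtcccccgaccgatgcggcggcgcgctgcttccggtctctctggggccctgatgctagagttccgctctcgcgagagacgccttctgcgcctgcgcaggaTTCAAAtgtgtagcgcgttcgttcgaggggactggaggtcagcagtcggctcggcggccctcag
Spdl1: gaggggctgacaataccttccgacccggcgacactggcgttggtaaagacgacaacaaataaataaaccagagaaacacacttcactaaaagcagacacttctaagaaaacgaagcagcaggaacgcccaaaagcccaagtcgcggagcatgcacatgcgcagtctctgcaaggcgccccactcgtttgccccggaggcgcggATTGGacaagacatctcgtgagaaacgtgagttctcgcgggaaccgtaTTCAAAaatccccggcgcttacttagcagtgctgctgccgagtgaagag
Cenpn: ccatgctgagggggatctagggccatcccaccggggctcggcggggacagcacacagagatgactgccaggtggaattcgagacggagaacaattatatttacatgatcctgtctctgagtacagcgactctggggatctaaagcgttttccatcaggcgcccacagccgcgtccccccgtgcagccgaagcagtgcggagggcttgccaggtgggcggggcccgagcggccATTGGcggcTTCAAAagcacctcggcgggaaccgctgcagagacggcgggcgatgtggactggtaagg
Cenpe: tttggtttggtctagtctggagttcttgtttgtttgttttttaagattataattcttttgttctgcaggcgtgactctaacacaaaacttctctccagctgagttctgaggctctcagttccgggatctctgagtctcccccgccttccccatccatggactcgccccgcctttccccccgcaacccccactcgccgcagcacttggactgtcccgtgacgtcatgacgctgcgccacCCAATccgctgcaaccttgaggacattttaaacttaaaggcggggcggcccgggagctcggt
Cenpf: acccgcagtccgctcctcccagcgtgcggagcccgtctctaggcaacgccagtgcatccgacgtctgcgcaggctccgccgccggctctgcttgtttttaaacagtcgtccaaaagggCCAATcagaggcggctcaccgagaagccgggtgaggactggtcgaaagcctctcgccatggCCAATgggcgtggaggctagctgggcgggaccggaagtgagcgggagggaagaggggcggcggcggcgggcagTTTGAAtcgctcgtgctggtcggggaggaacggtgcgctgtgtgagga

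All of these but the Cenpe promoter hold the cell cycle homology letters, which begin at base -14 from the start in Ska3, at -9 in Cenpn, at 2 in Spdl1 and at 3 in Cenpf, where base 1 is the first transcribed base. The NF-Y letters begin at -18 in Cenpn, -47 in Spdl1, -12 in Cenpe and at both -132 and -71 in Cenpf, and none lie in the Ska3 window. No match overlaps another in these 5 windows. RefSeq promoters were matched for 31 members, 33 promoters in all. On either strand TTTGAA was found in 13 of the 33 (39.4%) against 17.9% of all 32851 promoters, and CCAAT in 23 (69.7%) against 37.4%. The variant TTCGAA occurred in 2 member promoters (6.06%) and in 1.56% of all promoters. Of the E2F sites, TTTCCCGC was in 4 member promoters (12.1%) against 1.07% of all, TTTGGCGC in 1 (3.03%) against 0.514%, and TTTCGCGC in 0 against 0.323%. These matches describe letters only. Cenpo, Cenpt and Nuf2, which rose in AA, held none of the 6 motifs in the window.

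The second comparison kept the aged oocyte and changed the somatic cells, with aged oocytes in young somatic cells (AY) set against aged oocytes in aged somatic cells (AA). In AY 4 of 33 members were lower and none higher, whereas 6.59% of all tested genes were called and 3.07% were lower. The genes that fell were Ska3, Spdl1, Cenpn and Cenpe, so that 3 of the 4 encode outer proteins. The median log2 difference over the members was -0.05, near the 0.00 of all genes. The comparison used the same 12 AA libraries as AA against YY, so the differences of the 2 comparisons are not independent.

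Ska3 had 113, 133 and 142 CPM (lowest, median, highest) in AY, against 128.9, 201.6 and 264 CPM in AA. All 6 AY oocytes were below the AA median and 3 below the lowest AA oocyte, and the log2 change was -0.56 ± 0.15 (SE). Spdl1 had 275.5, 347 and 388 CPM in AY against 351, 438 and 509.6 CPM in AA, a log2 change of -0.38 ± 0.10. Cenpn had 681, 785 and 911 CPM in AY against 905, 1007 and 1135 CPM in AA, a change of -0.36 ± 0.09. Only the highest AY oocyte reached the AA range of Cenpn. Adjusted p values in edgeR's quasi-likelihood test were 0.0211 for Ska3, 0.013 for Spdl1 and 0.0142 for Cenpn.

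Cenpe, a kinesin that carries chromosomes along spindle microtubules, had 259.8, 274.5 and 295 CPM in AY. In AA it had 286, 334 and 499.9 CPM, so that 4 AY oocytes were below every AA oocyte, and it fell by 0.35 ± 0.10 on the log2 scale (adjusted p 0.0305 in edgeR). Cenpf, which joins Cenpe at the corona, had 176, 261 and 310.0 CPM in AY and 209, 320.5 and 542 CPM in AA, a difference of -0.43 ± 0.19 that did not pass the test.

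The other members called in AA against YY did not pass in AY against AA. Cenpt differed by -0.52 ± 0.17 (adjusted p 0.0557 in edgeR) and Cenpk by 0.57 ± 0.20 (adjusted p 0.0748 in edgeR), with 5 of 6 AY oocytes above every AA oocyte for Cenpk. Cenpo differed by -0.35 ± 0.15, Nuf2 by -0.21 ± 0.09 and Cenpi by -0.42 ± 0.28. Dsn1 (-0.09 ± 0.11), Cenpq (0.07 ± 0.10) and Cenpw (-0.05 ± 0.16) had smaller differences. The small Dsn1 difference joined AY sets that lay apart. They had 539 to 579 CPM (4 oocytes) and 341 to 386 CPM (2 oocytes), where AA had 441 to 644 CPM. None of the 3 CENP-A genes and none of the 9 KMN genes was called in this comparison, with unadjusted p under 0.05 for 1 KMN gene, Nuf2.

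**Figure D4:**
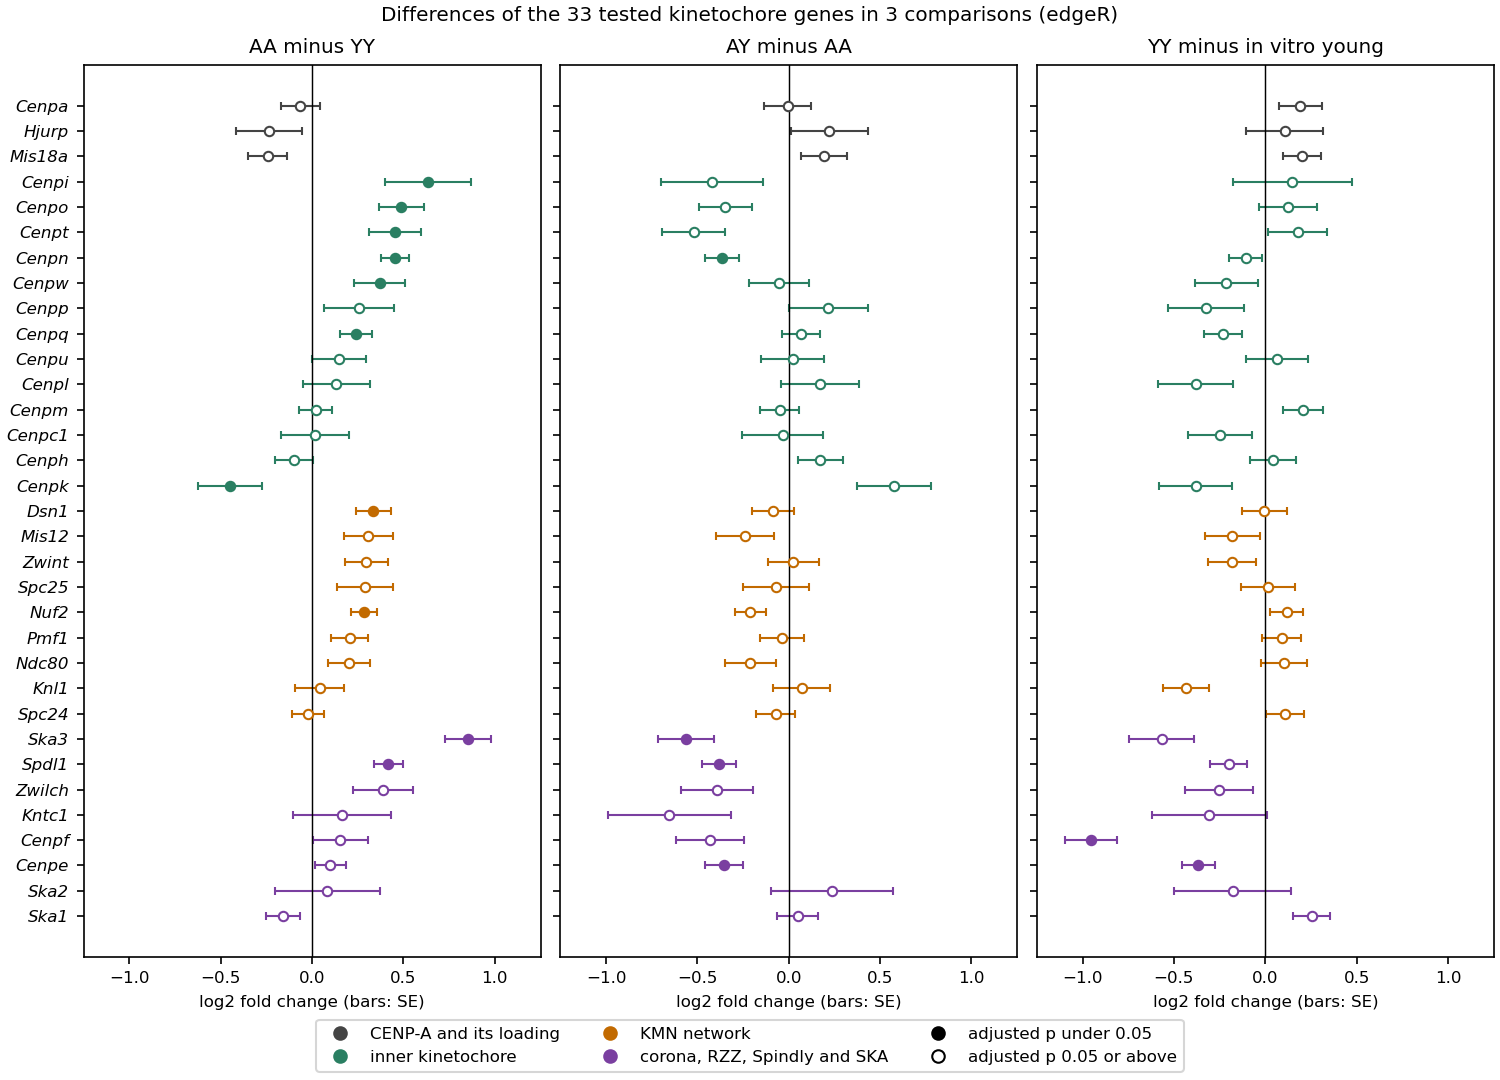
Log2 difference with its SE for the 33 tested members in 3 comparisons, coloured by role and filled where the adjusted p was under 0.05. In AA minus YY 11 genes are filled, 10 of them to the right of 0, in AY minus AA 4 are filled to the left, and in YY minus in vitro young Cenpf and Cenpe are filled to the left.

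With 6 AY oocytes, single libraries decided these calls. AY replicates 1 and 6 formed 1 of the sets of all-or-nothing genes and the other 4 oocytes another, so these 2 replicates are not unrelated. Averages in the set of 4 and the set of 2 were 838 and 690 CPM for Cenpn and 131 and 133 CPM for Ska3. For Spdl1 they were 343 and 331 CPM, and for Cenpe 280 and 265 CPM. Without AY replicate 6 no member was called (edgeR; the log2 changes were -0.56 for Ska3, -0.33 for Spdl1, -0.32 for Cenpn and -0.35 for Cenpe). Without AY replicate 1 Ska3 (-0.56), Cenpn (-0.32) and Cenpe (-0.33) were lost, and without AY replicate 3 Ska3 (-0.52) and Cenpe (-0.34). The call of Cenpe was also lost without AY replicate 2 (-0.35), AA replicate 5 (-0.29) or AA replicate 12 (-0.32). In limma voom with the sets of all-or-nothing genes as a random block 1 member was called, Cenpn at -0.41. In a fit of AY and AA alone 7 were called, with Cenpt and Cenpo also lower and Cenpk higher. The share of all genes called in these alternative fits is not given here. The summed level of the granulosa markers without Serpine2 was 68.0 to 193.9 CPM in AY and 74.2 to 261 CPM in AA, and none of the 5 tested was called. Of the 10 oocyte markers tested none was called.

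The third comparison held the somatic cells young and changed the age of the oocyte, AY against YY. No member was called among 33 in edgeR's quasi-likelihood test, and 5 had an unadjusted p under 0.05. DESeq2 also called none. Of all genes tested 1.62% were called, at an adjusted p under 0.05. The share of all genes at an unadjusted p under 0.05 was not counted, so the 5 have no background beside them. The 5 members were Cenpq (0.31 ± 0.10), Cenpe (-0.26 ± 0.10), Zwint (0.32 ± 0.14), Dsn1 (0.25 ± 0.12) and Cenpp (0.47 ± 0.22), named after their values were seen.

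For Ska3, Cenpn and Spdl1, all 6 AY oocytes lay between the lowest and the highest YY oocyte. Ska3 had a log2 difference of 0.29 ± 0.16 from YY, Cenpn 0.09 ± 0.09 and Spdl1 0.04 ± 0.10. Their adjusted p values in edgeR were 0.396, 0.731 and 0.921, which does not show that the groups were alike. Against S225 to S231 alone 5 members were higher in AY (Cenpn, Cenpo, Dsn1, Ska3 and Zwint), and against S198 to S202 alone none was called. The share of all genes called in each of these fits is not given here, so the counts cannot be read as particular to the members. The granulosa markers Serpine2 and Inha and the oocyte marker Zp2 were higher in AY than in YY.

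The fourth comparison asked how young oocytes in reconstituted follicles differed from young oocytes cultured in vitro. In YY 2 of 33 members were lower and none higher, against 2.48% of all 8749 genes called and 1.7% lower. Both genes that fell encode the large corona proteins, Cenpf and Cenpe. The median over the members was -0.11 against 0.01 over all genes.

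Cenpf, on chromosome 1 (189372803 to 189420284), had 193, 258 and 441 CPM (lowest, median, highest) in YY and 456, 600.2 and 739.7 CPM in the cultured controls. The groups did not overlap, and how many of all tested genes were likewise without overlap was not counted. It fell by 0.96 ± 0.14 (SE) on the log2 scale, with an adjusted p of 0.000205 in edgeR's quasi-likelihood test. The 3 YY oocytes of 1 all-or-nothing set were the highest of their group, between 430.0 and 441 CPM. The level in AA was 209 to 542 CPM and in AY 176 to 310.0 CPM, so that the highest AA oocyte reached the range of the controls. The uncultured controls had 544, 707 and 927 CPM.

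Cenpe, on chromosome 3 (134918298 to 134979373), had 253, 333 and 395 CPM in YY and 354, 416 and 506 CPM in the cultured controls. All 11 YY oocytes were below the median of the controls and 8 were below their lowest, and the log2 change was -0.37 ± 0.09 (adjusted p 0.0188 in edgeR). The call of Cenpe was lost without in vitro young replicate 6 (-0.32) or replicate 7 (-0.35), with genes detected per library as a covariate (-0.37), and against S198 to S202 alone (-0.37). Knl1 (-0.43 ± 0.13) and Ska3 (-0.57 ± 0.18) did not pass, with adjusted p values of 0.0561 and 0.0754 in edgeR. They were called without in vitro young replicate 3, when 4 members passed. The Ska3 range of the cultured controls held all 6 AY oocytes and overlapped both YY and AA. Among the oocyte markers 4 of 10 were also lower in YY (Zp3, Nlrp5, Gdf9 and Zp2), with a summed level of 12583 to 18481 CPM against 14481 to 26012 CPM. None of the 4 tested granulosa markers was called, and the part of the oocyte markers in the result was not tested.

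The last comparison set cultured against uncultured young oocytes. No member was called in edgeR's quasi-likelihood test, and 0.137% of all genes were called. In that test 2 members had an unadjusted p under 0.05, a threshold at which all genes were not counted. Kntc1 had 2.15, 16.5 and 23.4 CPM after culture and 17.9, 31.3 and 58.0 CPM without it, a log2 difference of -1.24 ± 0.31 with an adjusted p of 0.0889. DESeq2 called 1 member, Kntc1, and edgeR called it without in vivo young replicate 6. Cenpt, the other of the 2, had 45.02 to 68.6 CPM after culture and 61.98 to 129.5 CPM without it, a difference of -0.55 ± 0.17. Both genes had all 8 cultured oocytes below the median of the uncultured ones, and both were named after their values were seen.

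Further genes of the centromere and kinetochore outside the 35, both regulators and other subunits such as those of Cenps, Cenpx and Zw10, were counted from a list of 26, of which 23 were tested. In AA against YY 8 were higher and 2 lower, 43.5% of the 23, where 27.5% of all genes were called, 12.8% higher and 14.7% lower. Sgo2a, a shugoshin that shields centromeric cohesin in meiosis, had 31.2, 46.2 and 53.4 CPM in YY and 55.9, 68.0 and 97.6 CPM in AA. The groups did not overlap, and how many of all tested genes were likewise without overlap was not counted. Sgo2a rose by 0.70 ± 0.12 on the log2 scale. Bub1, a kinase of the spindle checkpoint recruited by Knl1, had 56.1, 119.6 and 163.5 CPM in YY and 124, 189 and 237 CPM in AA, and rose by 0.73 ± 0.14. Cdca8, the Borealin subunit of the chromosomal passenger complex, had 358, 418 and 525 CPM in YY and 483, 542 and 593 CPM in AA, and rose by 0.33 ± 0.07. Bod1, a regulator of phosphatase activity at the kinetochore, had 34.6, 53.7 and 111 CPM in YY and 21.8, 28.7 and 49.9 CPM in AA, a change of -1.05 ± 0.20. The other gene that was lower was Incenp (-0.55 ± 0.16).

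In AY against AA 2 of the 23 (8.7%, against 6.59% of all genes) were lower, Bub1 (-0.56 ± 0.17) and the checkpoint kinase gene Ttk (-0.46 ± 0.14), and none was higher. In AY against YY 1 was higher, Sgo2a, which had 72.9, 77.1 and 93.0 CPM in AY, above every YY oocyte, and a log2 difference of 0.83 ± 0.14. The number of all tested genes without overlap was not counted here either. In YY against in vitro young 1 was lower, Bub1 (-0.65 ± 0.18). In cultured against uncultured young oocytes edgeR's quasi-likelihood test called none, with 3 at an unadjusted p under 0.05. The share of all genes at that threshold was not counted. Incenp and Ttk were named after their values were seen.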

How the data were processed

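RNA of 45 single mouse oocytes was measured, and the authors deposited raw read counts for 55357 gene identifiers. STAR 2.7.8a, HTSeq 0.11.0 and build mm39 are named in the submitters' processing notes. The strand setting of the counting and the treatment of reads shared between similar genes are not given in the sources used here. Oocytes were lysed singly and their cDNA amplified by PCR, per the labels' protocols, so counts are not counts of molecules and depth limits genes with few counts. Samples were grouped by their titles, and columns were matched through the library number.

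Counts were tested with edgeR 4.0.16 in R 4.3.3 (TMM scaling, filterByExpr with minimum count 10 and minimum total 15, robust quasi-likelihood fit, Benjamini-Hochberg adjustment over all genes tested). AA, AY and YY formed 1 fit, and YY with both control groups another. The script was tested on simulated data. Standard errors were derived from the F statistic. CPM are TMM-scaled over all 45 libraries, and lengths are of the longest coding GENCODE M21 transcript, matched by Ensembl identifier. Libraries were divided by genes with a gap of at least 3 log2 units between libraries and at least 2 libraries on each side.

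The members, the lists (26 partner genes and markers of oocytes, granulosa, theca and stroma, immune cells, and endothelium and blood) and the tests were chosen with earlier results of these data known. Full values are given for each member called in at least 1 comparison and for the 4 called partner genes with the smallest p, and the highest and lowest member of each role are named by level per length. Alternatives were RLE size factors, DESeq2 1.42.0, 2 other filters, a replicate block, fits of only the 2 groups compared or of all 45 libraries, genes detected per library as a covariate, limma 3.58.1 voom with a random block, each library left out in turn, and either YY number range alone. Summing libraries was added after seeing the data. Within each group, every pair of libraries differed by more than sampling noise (chi-square per degree of freedom at least 2.08).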

Additional observations from a re-analysis of the deposited data

Results flagged for a closer look

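In the groups of 6 to 8 oocytes, 39 sets of values were examined for a single oocyte far from the rest, covering the 13 members called in any comparison, and 2 were found. Chance alone gives about 5% of such sets. Cenpq reached 334.8 CPM in in vitro young replicate 6, where the next highest oocyte of the group had 260.4 CPM. Nuf2 reached 527.9 CPM in in vivo young replicate 3, where the next highest had 451 CPM.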

How the results depend on the processing

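No called member reversed its direction under any alternative. In AA against YY (11 members called) the count was 7 with at least 1 CPM in 6 libraries, 6 with the sets of all-or-nothing genes as a random block, 2 against S198 to S202 alone and 0 with sets summed, and 7 to 12 when libraries were left out in turn. Cenpn, Cenpo, Cenpt, Dsn1, Nuf2, Ska3 and Spdl1 kept their calls in all 23 of these fits. In AY against AA (4 called) it was 1 with the random block, 7 with only these groups, 0 with sets summed and 0 to 5 with libraries left out. In AY against YY (0 called) it was 5 against S225 to S231 alone and 0 in every fit with a library left out. In YY against in vitro young (2 called) it was 1 with genes detected as a covariate, 4 with all 45 libraries in 1 fit, 1 against S198 to S202, 6 against S225 to S231, 0 with sets summed and 1 to 4 with libraries left out. In in vitro young against in vivo young (0 called) it was 1 with DESeq2, without a filter or with all 45 libraries, and 0 to 1 with libraries left out, the 1 being Kntc1. The causes were not tested. Shares of all genes called in the alternative fits are not given here, so these counts cannot be read as particular to the members. With sets summed, fewer samples entered the fit. Replicate numbers were not taken to pair the oocytes, as the labels name no shared animal or day. Deviations of same-numbered oocytes correlated above 0.1 in 2 of 11, 0 of 6, 2 of 6, 0 of 8 and 4 of 8 pairs. Differently numbered pairs were not examined, so these values cannot decide on pairing. With a replicate block the count was 11 in AA against YY, 7 in AY against AA (Cenpk higher, 6 lower), 0 in AY against YY, 1 in YY against in vitro young (Cenpf) and 0 in the control comparison. Depth limits Cenpb, Nsl1, Ska2, Cenpi and Kntc1, which have libraries with fewer than 5 counts.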
